A study of Rattus norvegicus with 24 samples.

Results

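The silica response of the lung was set against that of the blood within each rat. All 24 arrays of the series entered, 1 lung and 1 blood array from each of 12 rats. Per rat and probe, the blood log2 value was taken from the lung log2 value, and these lung-minus-blood values were compared between 6 silica and 6 air rats. The resulting difference is the silica effect in lung (silica minus air) less the silica effect in blood, so a positive value means that silica raised a transcript more, or lowered it less, in lung than in blood. Probes counted as measured in a tissue where the detection p-value was under 0.05 on at least 6 of its 12 arrays, and 7594 of 21792 (34.8%) were measured in both.

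The rats were males of the strain labelled CDF Fisher 344, with an age of 3 months given in the labels without the time point it refers to. One group inhaled crystalline silica at 15 mg/m3, for 6 hours a day on 5 days, and the other air without silica (0 mg/m3). Lung and blood were taken at 32 weeks of recovery. The 4 groups of 6 were silica lung, air lung, silica blood and air blood. Globin transcripts were depleted from blood RNA. The extraction of lung RNA was not described in the labels. Each rat is a separate animal, so p-values measure the spread between these rats.

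Inhaled silica particles are taken up by alveolar macrophages, damage their lysosomes and set off inflammation that persists in the lung long after the exposure has ended. Leukocytes reach the lung through the blood, where the same genes are read in a different mixture of cells. Lung and blood are both bulk samples, in which fewer cells of a type and less RNA per cell cannot be told apart.

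The tissue labels held on marker genes. Surfactant proteins Sftpc and Sftpb and the club cell protein Scgb1a1 were detected on 12 of 12 lung arrays and 0 of 12 blood arrays, and the red cell enzyme Alas2 lay between 6.51 and 6.67 (log2) in lung against 12.56 and 12.92 in blood. Lung arrays detected 11013 to 11733 probes and blood arrays 7498 to 8469. On the first principal component of lung (49.2% of the variance) silica rats lay between 2.9 and 11.7 and air rats between -10.6 and -4.44. On that of blood (38.4%), silica rat 6 (14.5), air rat 2 (20.7) and air rat 6 (11.2) stood apart from the other 9 rats (-7.25 to -1.08). Counts are therefore also given without these 3 rats.

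Of the 7594 probes, 266 (3.5%) had a lung-minus-blood value that differed between silica and air rats at a Benjamini-Hochberg adjusted p under 0.05 in limma. For 170 (2.24%) the difference was positive and for 96 (1.26%) negative. At an unadjusted p under 0.05 the difference had 1245 probes (16.4%). For 179 probes (2.36%), 159 of them among the 266, no silica rat overlapped with any air rat. Without the 3 rats 437 probes passed, among them 233 of the 266. The median absolute difference of the 266 was 0.51 on the log2 scale. Read in each tissue alone over the same probes, silica changed 1088 (14.3%) in lung, 621 up and 467 down, and 3 (0.0395%) in blood, all up. At an unadjusted p under 0.05 blood had 687 (9.05%), 372 higher and 315 lower. For 876 of the 1088 lung calls (80.5%) the difference from blood did not pass, and its median standard error was 0.09, against 0.04 for the lung effect alone and 0.08 for the blood effect alone.

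The 266 fell into classes by where an unadjusted p under 0.05 was found. Lung alone moved in 178, blood alone in 29, both in opposite directions in 49, both in the same direction in 8, and neither in 2. Over all 7594 probes the shares were 24% lung alone, 5.44% blood alone, 0.948% opposite and 2.66% same direction. A test of lung minus blood favours opposite over shared movement, so 49 against 8 does not show which was more common. Lung moved further than blood in 210 of 266. Opposite signs by themselves were common, at 3651 of all 7594 probes, and are not used as a class. Scaling by array medians in place of quantiles left 49 differences past the threshold, and 50 of the 67 genes that the text selects by rule lost their call there. Those that kept it were Retnla, IGH-1A_PREDICTED, Igkvl16, Ighv, Ceacam4, RT1-Db1, Slc38a5, Upp1, Ubl3, Adgre5, Npy, Ubd, Slc7a7, Ccl2, Nr1d1, Hmox1 and Wif1. None of the 67 changed direction in any of the alternatives.

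**Figure D1:**
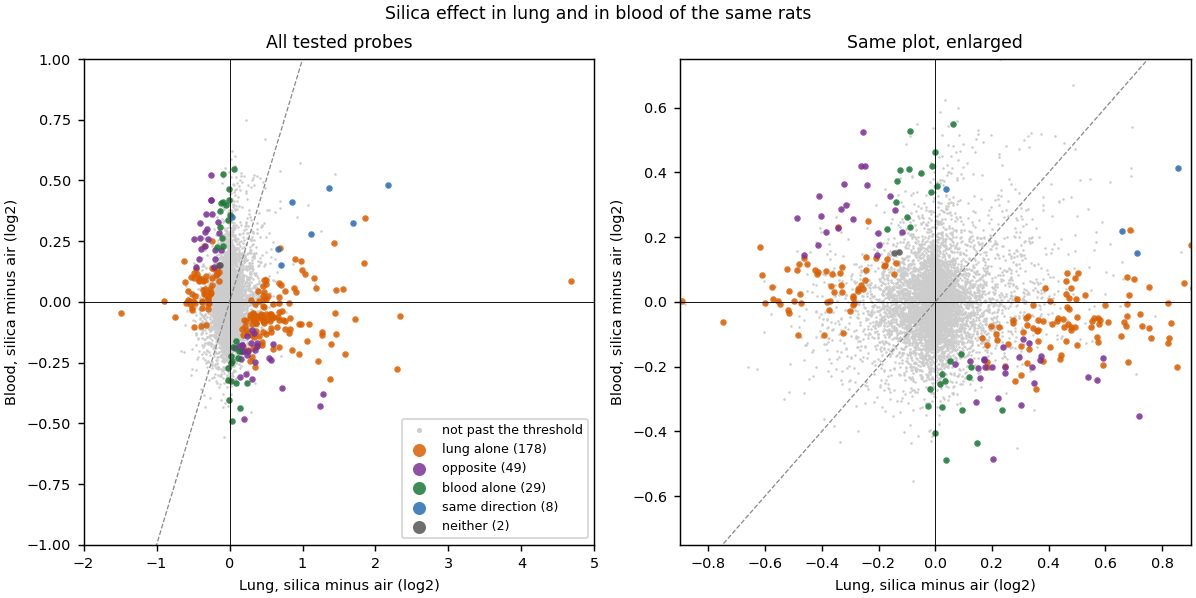
Silica effect (silica minus air, log2) in lung on the x axis and in blood on the y axis, 1 point per probe, with the 266 probes past the threshold coloured by class and the dashed line marking equal effects; the axes have different scales. Coloured points spread along the lung axis out to Retnla at 4.68, while no opposite probe above both floors moved by more than 0.43 in blood.

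The largest difference of all was that of Retnla. Retnla, a resistin-like protein made by alternatively activated macrophages and airway epithelium in mice, stood at 12.90, 13.61 and 13.87 (lowest, median and highest, log2) in silica lungs against 8.14, 8.86 and 9.54 in air lungs. Its blood levels were 9.19, 9.53 and 9.66 in silica rats and 9.05, 9.37 and 9.86 in air rats. The lung groups were far apart and the blood groups lay on top of each other. The lung-minus-blood value was thus 3.51 to 4.36 in silica rats and -1.24 to 0.18 in air rats, a difference of 4.59 ± 0.23 (SE, 24.1-fold, adjusted p = 1.5e-07). The blood effect had a 95% interval of -0.16 to 0.34.

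Chi3l1, a chitinase-like secreted glycoprotein, was at 11.54, 11.86 and 12.46 in silica lungs and 10.14, 10.29 and 10.42 in air lungs. In blood it was at 11.34, 11.56 and 11.83 in silica rats and 11.08, 11.29 and 11.44 in air rats. Silica rats were higher in both tissues, without overlap in lung and with overlap in blood. The lung moved by 1.70 and the blood by 0.32 (unadjusted p = 0.00243, adjusted p = 0.203), and the difference was 1.37 ± 0.13 (adjusted p = 0.000196). Hp, the haemoglobin-binding haptoglobin, had a median of 10.26 in silica lungs (9.98 to 10.89) and 8.88 in air lungs (8.68 to 9.15). Its blood medians were 9.87 in silica rats and 9.66 in air rats, with overlap, and the difference was 1.19 ± 0.16 (adjusted p = 0.00139). Ceacam4, a cell surface protein of the carcinoembryonic antigen family, lay higher in blood than in lung in every rat. It was at 8.63 to 9.87 in silica lungs and 7.20 to 7.66 in air lungs, against 10.85 to 11.17 in silica blood and 10.62 to 10.94 in air blood. The rise in lung was 1.85 and that in blood 0.16, and the difference was 1.69 ± 0.20 (adjusted p = 0.000786).

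Antibody transcripts were among the largest positive differences. Antibodies are secreted by plasma cells, whose joining chain Jchain links the units of IgA and IgM. Jchain stood at 11.69, 11.95 and 12.71 in silica lungs and 9.59, 10.20 and 10.92 in air lungs. Its blood values were 9.82, 10.13 and 10.53 in silica rats and 8.85, 10.08 and 10.44 in air rats, where air rats spread most. Silica lungs all lay above air lungs, while the lung-minus-blood values overlapped (1.52 to 2.18 in silica rats, -0.55 to 1.66 in air rats). The difference was 1.51 ± 0.29 (adjusted p = 0.0108) and 1.9 without the 3 rats that stood apart. Its call ended when each array was centred on its median (0.88, adjusted p = 0.483) or each tissue was normalized alone (1.03, adjusted p = 0.114).

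The heavy chain probe IGH-1A_PREDICTED differed by 2.40 ± 0.32 (adjusted p = 0.00133), with a median lung-minus-blood value of 1.95 in silica rats and -0.59 in air rats and no overlap (lowest silica rat 0.55, highest air rat -0.32). Variable segment probes Igkvl16 (1.69 ± 0.23, adjusted p = 0.00139) and Ighv (1.59 ± 0.21, adjusted p = 0.00133) followed. Their blood effects were -0.32 for Igkvl16 and -0.13 for Ighv, neither past the threshold. Of 9 tested probes that RefSeq types as variable segments, 4 passed, all positive, against 2.24% of all probes. The other 5 lay between 0.03 and 0.50. Such probes can bind transcripts of near-identical segments, so a value belongs to a group of segments rather than to 1. Of the plasma cell list, Jchain was the only one of 5 tested members past the threshold, and all 5 were above 0. Of 7 B cell markers none passed in limma, with 2 at an unadjusted p under 0.05, both positive, against 16.4% of all probes in either direction. The summed blood level of these markers was 7.55 to 7.77 in silica rats and 7.56 to 7.91 in air rats (mean log2 of the list).

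**Figure D2:**
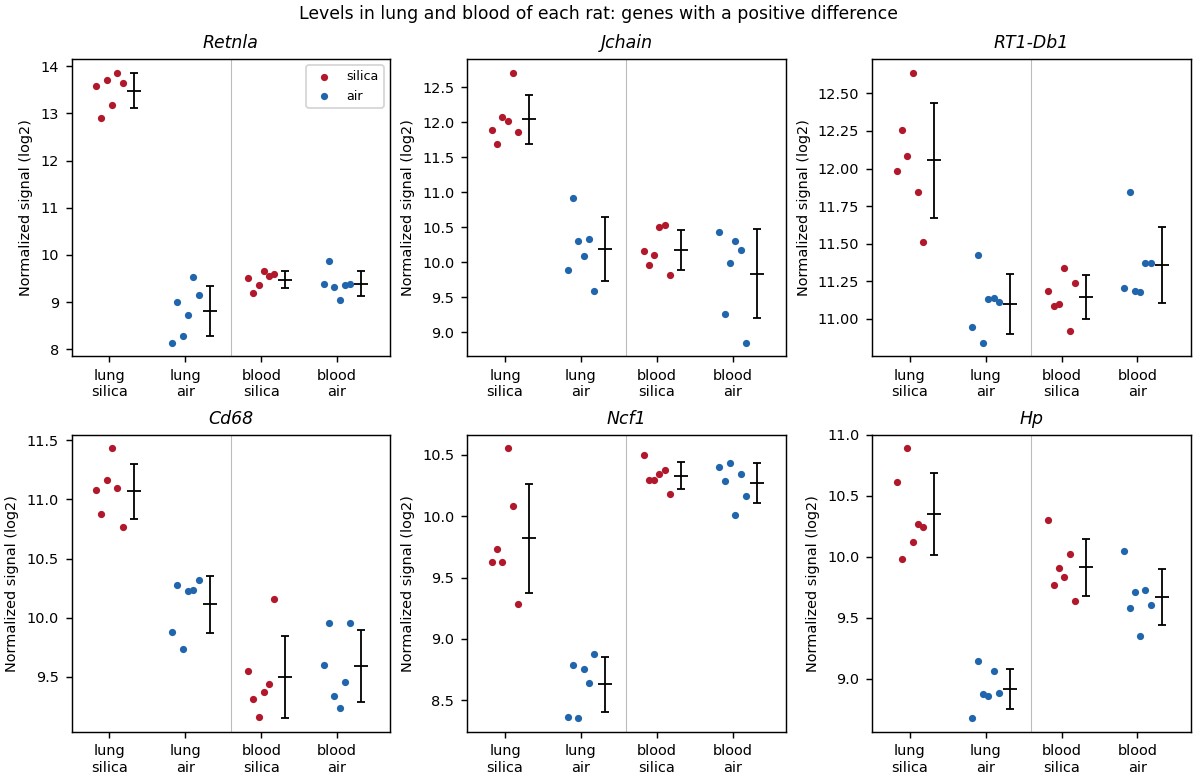
Normalized signal (log2) of 6 genes with a positive difference, 1 point per rat, in silica lung, air lung, silica blood and air blood; the black marks are means with SD over 6 rats. Silica lungs lie above all air lungs in each of the 6 panels, and the silica and air blood groups overlap in all of them.

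Of 9 MHC class II presentation genes 6 rose in lung, against 8.18% of all probes. None passed in blood, where 8 of the 9 effects were below 0 and 1 above. Class II molecules present peptides from engulfed material to helper T cells on macrophages, dendritic cells and B cells. Their transcription depends on the co-activator Ciita, which is held at the promoter by factors bound to conserved X and Y boxes. For the difference 5 of the 9 passed, all positive (Cd74, Ifi30, RT1-Ba, RT1-Da and RT1-Db1), against 2.24% of all probes. All 9 had a difference above 0, with a median of 0.48 against 0.00 over all tested probes. The median effect of the list was 0.68 in lung and -0.13 in blood. The count was 4 to 6 without any 1 rat and 1 with median centring.

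The promoters of 4 genes past the threshold are shown, those of RT1-Db1 (a class II beta chain), RT1-Da and RT1-Ba (alpha chains) and Cd74 (the invariant chain that guards the peptide groove). Each is the 120 bases before the gene start from RefSeq, build GRCr8, read 5′ to 3′ along the gene. The stretches are chr20:4560163-4560282 on the minus strand for RT1-Db1, chr20:4515295-4515414 on the plus strand for RT1-Da, chr20:4576937-4577056 on the plus strand for RT1-Ba and chr18:56527086-56527205 on the plus strand for Cd74. Capitals mark the Y box letters CTGATTGG and the X box core letters AGCAAC, which do not overlap.
RT1-Db1: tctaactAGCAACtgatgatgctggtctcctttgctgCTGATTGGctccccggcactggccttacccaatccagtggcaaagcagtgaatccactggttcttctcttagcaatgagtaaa
RT1-Da: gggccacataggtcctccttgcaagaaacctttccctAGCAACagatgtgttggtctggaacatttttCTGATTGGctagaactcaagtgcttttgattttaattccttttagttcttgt
RT1-Ba: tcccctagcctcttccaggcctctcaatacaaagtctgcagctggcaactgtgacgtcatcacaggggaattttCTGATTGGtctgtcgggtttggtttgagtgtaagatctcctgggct
Cd74: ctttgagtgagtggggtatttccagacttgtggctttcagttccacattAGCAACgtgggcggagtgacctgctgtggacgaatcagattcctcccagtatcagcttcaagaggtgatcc
Both strands were searched, with letters chosen after these promoters had been read, so the shares over all promoters are no test of enrichment. Only exact letters were searched, and a box with other letters is left unmarked. The Y box letters occur in 4 of the 8 tested class II list genes with a RefSeq promoter and in 2.12% of 33469 promoters of the same length. The X box letters occur in 4 of the 8 and in 6.23% of all. Both occur in RT1-Db1 and RT1-Da and in 0.149% of all promoters. Ifi30 also passed for the difference, and its promoter, not shown, holds neither. RT1-DOa holds the Y box letters and RT1-DOb the X box letters, and neither gene passed. A match describes the letters in this window and does not show binding.

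RT1-Db1 stood at 11.51, 12.03 and 12.64 in silica lungs and 10.84, 11.12 and 11.43 in air lungs. In blood it was at 10.92, 11.14 and 11.34 in silica rats and 11.18, 11.29 and 11.84 in air rats. The lung groups did not overlap, and in blood the silica rats tended to the lower end with overlap. Lung moved by 0.95 and blood by -0.22 (unadjusted p = 0.0675), and the difference was 1.17 ± 0.14 (adjusted p = 0.000786). Cd74 was at 11.44, 11.80 and 12.06 in silica lungs and 10.91, 11.04 and 11.24 in air lungs, and at 10.53, 10.79 and 11.09 in silica blood and 10.70, 10.96 and 10.99 in air blood. Its difference of 0.80 ± 0.11 (adjusted p = 0.00133) came with a blood effect of -0.07. RT1-Ba differed by 0.95 ± 0.16 (adjusted p = 0.00555), with lung-minus-blood values of -0.35 to 0.45 in silica rats and -1.29 to -0.52 in air rats.

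RT1-Da differed by 0.44 ± 0.09 (adjusted p = 0.0185) with overlapping lung-minus-blood values. Its silica lung level, 14.11 to 14.25, was the highest among the 67 genes selected by rule. Ifi30, the lysosomal thiol reductase that unfolds antigens, differed by 0.72 ± 0.16 (adjusted p = 0.0194). The protease Ctss, which trims the invariant chain, had a difference of 0.48 that did not pass, with effects of 0.70 in lung and 0.22 in blood. Ciita itself was near a floor, with a difference of 0.19 that did not pass. The summed class II level was 9.65 to 10.07 in silica lungs and 9.27 to 9.51 in air lungs, and 9.39 to 9.59 in silica blood and 9.46 to 9.61 in air blood. Beside it, the summed monocyte and macrophage markers were at 8.79 to 9.18 in silica lungs and 8.35 to 8.69 in air lungs, and at 8.19 to 8.44 in silica blood and 8.06 to 8.37 in air blood. Their part in the class II result was not tested. Class II probes can bind transcripts of related class II genes.

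Some macrophage, lysosome and oxidase genes also rose in lung alone. Cd68, a lysosomal membrane protein of macrophages, was at 10.76, 11.09 and 11.43 in silica lungs and 9.74, 10.23 and 10.32 in air lungs. Blood levels were 9.16, 9.41 and 10.16 in silica rats and 9.24, 9.53 and 9.96 in air rats. The lung groups were apart and the blood groups mixed, and silica rat 6, one of the 3 that stood apart, was the highest in blood. The difference was 1.05 ± 0.21 (adjusted p = 0.0147) and 1.15 without those rats, and its call ended when each tissue was normalized alone or arrays were centred on their medians. Cd68 was the only one of 11 tested monocyte and macrophage markers past the threshold (4 without the 3 rats). Of the 11, 9 had a difference above 0. In lung 8 of the 11 had risen, against 8.18% of all probes.

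Of 20 lysosome and phagosome genes 4 passed, all positive, against 2.24% of all probes, and 18 of 20 lay above 0 (median 0.24). Without the 3 rats 8 passed, and without any 1 rat 2 to 6 did. Ctsb, a cysteine protease, had lung-minus-blood values of -0.66, -0.47 and -0.18 in silica rats and -1.20, -1.09 and -1.01 in air rats. These did not overlap, and the difference was 0.65 ± 0.08 (adjusted p = 0.0012). Atp6v1b2, a subunit of the proton pump, differed by 0.61 ± 0.11 (adjusted p = 0.00749), a call that ended when each tissue was normalized alone (0.50, adjusted p = 0.0564) or arrays were centred on their medians (0.30, adjusted p = 0.724). The asparaginyl protease Lgmn differed by 0.51 ± 0.11 (adjusted p = 0.02, and 0.054 without air rat 3). Ctsh, an aminopeptidase of the cathepsin family, differed by 0.83 ± 0.18 (adjusted p = 0.0221), but 6 of the 12 fits without 1 rat ended its call (adjusted p up to 0.0576). Rnaset2, a lysosomal ribonuclease, differed by 1.07 ± 0.14 (adjusted p = 0.0012), with lung-minus-blood values of 1.73 to 2.58 in silica rats and 0.99 to 1.63 in air rats.

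In the list of NADPH oxidase and antioxidant genes 6 of 24 passed, all positive, against 2.24% of all probes (Cyba, Hmox1, Mt1, Ncf1, Prdx5 and Sod2), while the list's median was 0.07. Without the 3 rats 7 passed. Ncf1, a cytosolic subunit of the phagocyte oxidase, was lower in lung than in blood in all air rats and in all silica rats but 1. It stood at 9.29, 9.68 and 10.55 in silica lungs and 8.35, 8.70 and 8.88 in air lungs, against 10.18 to 10.50 in silica blood and 10.01 to 10.43 in air blood. Lungs of silica rats thus moved toward the blood level, and the difference was 1.13 ± 0.20 (adjusted p = 0.00705). Cyba, a membrane subunit of the same oxidase, differed by 0.63, while Cybb (0.13) did not pass. Mt1, a metal-binding metallothionein, was at 9.63, 9.78 and 9.83 in silica lungs and 8.49, 8.79 and 8.95 in air lungs. Blood gave 8.74, 8.97 and 9.08 in silica rats and 8.72, 8.77 and 8.93 in air rats. The lung groups lay far apart and the blood groups overlapped, and the difference was 0.86 ± 0.09 (adjusted p = 0.000238). Haem oxygenase Hmox1 (0.80 ± 0.14, adjusted p = 0.00641), mitochondrial superoxide dismutase Sod2 (0.90 ± 0.16, adjusted p = 0.00749) and the peroxiredoxin Prdx5 (0.76 ± 0.19, adjusted p = 0.0377) followed.

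Of 18 tested genes for chemokines, which call in leukocytes, and their receptors, 5 lay above the floor in both tissues. Ccl2, the monocyte attractant, was at 7.64, 8.13 and 8.92 in silica lungs and 6.67, 6.82 and 6.93 in air lungs. Its blood levels of 6.56 to 6.96 in silica rats and 6.74 to 6.98 in air rats were 0.36 above the blood floor on average. A large rise has room to show there, but a small rise may be hard to see. The difference was 1.49 ± 0.18 (adjusted p = 0.000822). In this list 3 passed, all positive, against 2.24% of all probes (4 positive and 1 negative without the 3 rats). Beside Ccl2 they were the macrophage chemokine Ccl3 (0.61 ± 0.12, adjusted p = 0.0132) and the lymphocyte receptor Ccr6 (0.57 ± 0.12, adjusted p = 0.016). All 3 lay near a floor. Ccr6 moved by 0.24 in lung and -0.33 in blood, and its call ended with no replicate block on the rat (adjusted p = 0.0991), with the rat as a random block and with a block on the replicate number. Of 7 complement genes 2 passed, both positive, against 2.24% of all probes. They were Cfb, a protease of the alternative pathway (0.82 ± 0.13, adjusted p = 0.00426), and C4b, of the classical pathway (0.84 ± 0.17, adjusted p = 0.016). Both lay near the blood floor. C4b had moved by 1.12 in lung and 0.28 in blood.

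Positive differences past the threshold were found for 1 of 14 glycolysis genes, 1 of 17 oxidative phosphorylation genes, 1 of 15 sterol and fatty acid synthesis genes and 2 of 22 proliferation genes, against 2.24% of all probes. Slc16a3, a lactate exporter, differed by 0.92 ± 0.15 (adjusted p = 0.00355), and the amino acid transporter Slc7a7 by 1.56 ± 0.20 (adjusted p = 0.0012). Slc7a7 lay near the blood floor, at 6.47 to 7.16 in blood. The replication helicase subunit Mcm6 (0.55 ± 0.14, adjusted p = 0.0429, and up to 0.0968 without 1 rat) and the mitotic cyclin Ccnb2 (0.48 ± 0.10, adjusted p = 0.0159) were those of the proliferation list. Ccnb2 lay near a floor. Dnajc3, a chaperone of the endoplasmic reticulum, differed by 0.58 ± 0.09 (adjusted p = 0.00324). Lpcat1, which makes surfactant lipid in alveolar type 2 cells, differed by 0.76 ± 0.15 (adjusted p = 0.0148). That call ended with no replicate block on the rat (adjusted p = 0.0774) or with the rat as a random block (adjusted p = 0.057). Lpcat1 was the only one of 3 tested alveolar type 2 genes past the threshold, and the others lay at 0.30 and -0.32. Calls for Cox5a, a respiratory chain subunit (0.45, adjusted p = 0.0391), and Fdps, of sterol synthesis (0.33, adjusted p = 0.0266), ended without single rats (adjusted p up to 0.0925 for Cox5a and 0.0678 for Fdps), and that of Fdps also with no replicate block on the rat (adjusted p = 0.128).

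Of the 96 negative differences, lung alone moved in 58, blood alone in 14 and both tissues in opposite directions in 21, and 49 were above the floor in both tissues. Slc38a5, a transporter of glutamine and other neutral amino acids, was far higher in blood. It stood at 8.89, 9.05 and 9.42 in silica lungs and 9.50, 9.73 and 9.85 in air lungs, and at 12.99 to 13.14 in silica blood and 12.57 to 13.16 in air blood. The lung groups did not overlap, and the difference was -0.79 ± 0.09 (adjusted p = 0.000786). Ahsp, the chaperone of free alpha-globin in red cell precursors, had the lowest difference above both floors, -0.90 ± 0.21 (adjusted p = 0.0304). Its lung level was 7.01 to 8.17 in silica rats and 8.06 to 8.99 in air rats, with overlap, and its blood level 13.78 to 14.10 in silica rats and 13.88 to 14.08 in air rats. These blood values were close to the highest among the 67 genes selected by rule (14.25, RT1-Da in silica lung). A limit at the top of the scale was not tested. The Ahsp call ended in 8 of the 12 fits without 1 rat (adjusted p up to 0.0766). It was the only one of 14 erythroid genes past the threshold, and the summed erythroid level was 8.49 to 8.63 in silica lungs and 8.58 to 8.71 in air lungs.

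Npy, the neuropeptide Y transcript, had a lung effect of -0.58 and a blood effect of 0.04 (difference -0.62 ± 0.14, adjusted p = 0.0292, and up to 0.0742 without 1 rat). Its blood level, 13.75 to 14.16, was near the top of the scale like that of Ahsp. The palmitoyltransferase Zdhhc2 had a lung effect of -0.52 and a blood effect of 0.10 (difference -0.63 ± 0.13, adjusted p = 0.019). Retnlg, a resistin-like transcript of rat and mouse neutrophils, differed in direction from Retnla, with a lung effect of -0.57, a blood effect of 0.01 and a difference of -0.58 ± 0.13 (adjusted p = 0.0272, up to 0.0643 without 1 rat, and 0.114 with no replicate block on the rat).

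Of 5 tested endothelial markers 4 fell in lung, against 6.15% of all probes. All 5 had a negative difference (median -0.34) and 2 passed, Icam2 and Tie1, against 1.26% of all probes. All 5 had an unadjusted p under 0.05 for the difference, against 16.4% of all probes. Cldn5, Esam and Tie1, 3 of the 5, lay near a floor, Cldn5 at 6.59 to 6.70 in blood with a lung effect of -0.35. The summed level of the list was 10.51 to 10.97 in silica lungs and 11.03 to 11.27 in air lungs. Icam2, an adhesion molecule of endothelium and leukocytes, was at 11.17, 11.58 and 11.67 in silica lungs and 11.76, 11.90 and 11.97 in air lungs. In blood it was at 10.24, 10.40 and 10.67 in silica rats and 10.13, 10.22 and 10.37 in air rats. The lung groups did not overlap and the blood groups did, and the difference was -0.59 ± 0.13 (adjusted p = 0.0187). Tie1, an endothelial receptor kinase near the blood floor, differed by -0.23 ± 0.06 (adjusted p = 0.0493), and 10 of the 12 fits without 1 rat (adjusted p up to 0.0987) and the fit with no replicate block on the rat (adjusted p = 0.0503) ended that call.

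Opposite movement in both tissues at an unadjusted p under 0.05 was found for 49 of the 266, 28 with the lung up and the blood down and 21 with the lung down and the blood up. Over all 7594 probes 72 (0.948%) met that condition, and 202 (2.66%) moved in the same direction in both tissues. With adjusted p-values in both tissues 0 of the 266 met it in limma, since no blood effect of these genes passed, and 35 of the 49 had an adjusted lung effect. Of the 49, 30 were above the floor in both tissues. Their median absolute effect was 0.31 in lung and 0.23 in blood. Without the 3 rats 64 probes met the condition, 36 of them above both floors. Of the 15 opposite genes named here, 13 met every condition without the 3 rats, Agrn and Il6r being the exceptions. With median centring all 15 kept opposite signs, but only 3 of the differences passed (Adgre5, Ubl3 and Upp1), and some blood effects shrank, that of Myc to -0.04 against -0.25.

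Adgre5, the leukocyte adhesion receptor CD97, stood at 9.95, 10.05 and 10.22 in silica lungs and 10.17, 10.50 and 10.63 in air lungs. The blood levels were 10.75, 10.83 and 11.03 in silica rats and 10.43, 10.62 and 10.66 in air rats. Silica blood lay wholly above air blood, and in lung a single air rat reached into the silica range. The lung effect was -0.40 (adjusted p = 0.00643) and the blood effect 0.26 (unadjusted p = 0.000771, adjusted p = 0.144). The difference of -0.67 ± 0.09 (adjusted p = 0.00139) separated the groups, at -1.09 to -0.53 in silica rats and -0.26 to 0.00 in air rats.

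Tcn2, the cobalamin carrier transcobalamin, was the only opposite gene above both floors whose groups were apart in each tissue. It stood at 8.12, 8.19 and 8.27 in silica lungs and 8.37, 8.54 and 8.67 in air lungs, and at 8.73, 8.80 and 8.97 in silica blood and 8.37, 8.53 and 8.72 in air blood. Lung and blood levels of air rats were alike, and those of silica rats had moved apart. The difference was -0.62 ± 0.09 (adjusted p = 0.00203). Hlx, a homeobox factor, was the other gene without overlap in either tissue, out of 7594, but lay near both floors. It was at 7.07, 7.35 and 7.41 in silica lungs and 7.41, 7.57 and 7.75 in air lungs, and at 7.38, 7.73 and 7.98 in silica blood and 7.03, 7.13 and 7.38 in air blood. The difference was -0.78 ± 0.14 (adjusted p = 0.00793).

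Antxr2, a matrix-binding receptor also used by anthrax toxin, was at 11.27, 11.44 and 11.63 in silica lungs and 11.71, 11.76 and 11.83 in air lungs. Its blood levels were 10.43, 10.73 and 10.88 in silica rats and 10.33, 10.38 and 10.57 in air rats. The lung groups were apart and the blood groups overlapped at their edge, with a difference of -0.62 ± 0.08 (adjusted p = 0.00133). Sec14l1, of the Sec14-like family of lipid-binding proteins, was at 9.83, 10.05 and 10.25 in silica lungs and 10.25, 10.35 and 10.64 in air lungs. In blood it was at 8.14, 8.29 and 8.38 in silica rats and 7.80, 7.87 and 8.16 in air rats. Each tissue showed an overlap at the edge, the lung-minus-blood values none, and the difference was -0.68 ± 0.11 (adjusted p = 0.00333). Its blood effect of 0.36 had the smallest p of the opposite genes in blood (unadjusted p = 0.000103, adjusted p = 0.0979).

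Upp1, which splits uridine, moved by -0.26 in lung and 0.42 in blood (difference -0.68 ± 0.12, adjusted p = 0.00749). Ubl3, a membrane-anchored ubiquitin-like protein, moved by -0.25 in lung and 0.42 in blood (difference -0.67 ± 0.11, adjusted p = 0.00542). Agrn, the basement membrane proteoglycan agrin, moved by -0.41 in lung and 0.33 in blood (difference -0.73 ± 0.14, adjusted p = 0.00947). Without the 3 rats its blood effect was 0.30 with an unadjusted p of 0.0665. Il6r, the interleukin-6 receptor, lay near the lung floor and moved by -0.12 in lung and 0.22 in blood (difference -0.33, adjusted p = 0.0179, and 0.051 without the 3 rats). Ddah2, which breaks down methylated arginine, and Schip1 lay near the blood floor and fell in lung with higher blood values (difference -0.55, adjusted p = 0.00516 for Ddah2, and -0.57, adjusted p = 0.0012 for Schip1).

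In the other direction, lung up and blood down, Swap70, a signalling protein of B cells and mast cells, ranked first among genes with a symbol by the weaker of the lung and blood p-values, though not by size. It was at 7.31, 7.49 and 7.53 in silica lungs and 7.21, 7.24 and 7.34 in air lungs, and at 7.72, 7.94 and 8.26 in silica blood and 8.13, 8.42 and 8.82 in air blood. Both tissues overlapped at the edge, and the lung level was 0.92 above its floor. The difference was 0.69 ± 0.13 (adjusted p = 0.0113). Myc, the growth-promoting transcription factor, was above both floors. It stood at 8.07, 8.24 and 8.34 in silica lungs and 7.74, 7.86 and 8.04 in air lungs, and at 7.52, 7.99 and 8.17 in silica blood and 7.88, 8.22 and 8.32 in air blood. Lungs did not overlap, blood did, and the difference was 0.60 ± 0.09 (adjusted p = 0.0026). Ppif, the mitochondrial cyclophilin, moved by 0.14 in lung and -0.31 in blood (difference 0.45, adjusted p = 0.0192, and 0.0504 without silica rat 5). Myc was the only one of 19 immediate early genes past the threshold, and 15 of the 19 had a difference below 0 (median -0.34), with Fos at -0.59 and Egr1, near a floor, at -0.88, neither past the threshold.

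**Figure D3:**
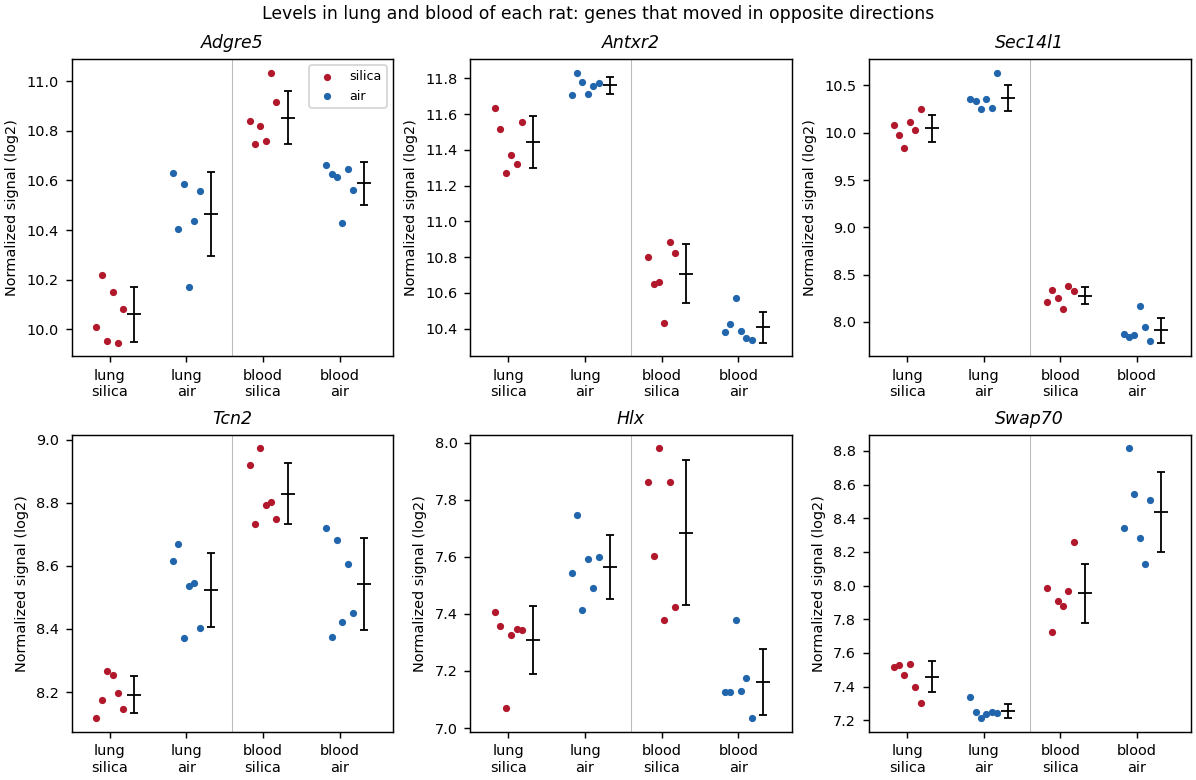
Normalized signal (log2) of 6 genes that moved in opposite directions, 1 point per rat, in silica lung, air lung, silica blood and air blood; the black marks are means with SD over 6 rats. In 5 panels silica lungs are low and silica blood is high; in that of Swap70 silica lungs are high and silica blood is low.

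Blood alone accounted for 29 of the 266, 16 of them above both floors. Ppp1r3b, which brings protein phosphatase 1 to glycogen, was at 8.29, 8.6 and 8.71 in silica blood and 7.92, 8.03 and 8.15 in air blood. In lung it was at 7.41, 7.47 and 7.55 in silica rats and 7.35, 7.58 and 7.75 in air rats. Blood groups were apart and lung groups were not. The blood effect of 0.53 (adjusted p = 0.0289) was one of the 3 that passed in blood, with Zfp532 (0.41, adjusted p = 0.0415) and LOC313824 (0.55, adjusted p = 0.0205). All 3 also passed for the difference, at -0.61 for Ppp1r3b, -0.53 for Zfp532 and -0.49 for LOC313824. Zfp532 lay near the blood floor and LOC313824 near the lung floor. The number of blood calls was 0 without silica rat 1 and 35 without silica rat 4. Ifi44, an interferon-induced gene, moved by -0.02 in lung and 0.34 in blood, with a difference of -0.35 ± 0.08 (adjusted p = 0.0216, up to 0.058 without 1 rat, and 0.108 with no replicate block on the rat).

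In 8 genes of the 266 both tissues moved the same way, upward in each, and 7 of them moved more in lung. S100a8, a calcium-binding protein abundant in neutrophils, was at 10.57, 11.13 and 11.96 in silica lungs and 8.91, 9.97 and 10.11 in air lungs. Blood values were 12.19, 12.55 and 12.59 in silica rats and 11.80, 11.94 and 12.29 in air rats. Lungs were apart, blood overlapped at the edge, and the difference of 0.90 ± 0.22 (adjusted p = 0.0408) did not pass without the 3 rats, in 9 of the 12 fits without 1 rat (adjusted p up to 0.089) or with no replicate block on the rat (adjusted p = 0.0797). Ubd, a ubiquitin-like modifier induced by interferon, moved by 2.17 in lung and 0.48 in blood (unadjusted p = 4.72e-05, adjusted p = 0.0546). Silica rats lay above all air rats in both tissues, at 7.96 to 10.48 against 6.63 to 7.08 in lung and 7.26 to 7.83 against 7.04 to 7.25 in blood. Its difference was 1.69 ± 0.31 (adjusted p = 0.00931), and its blood level lay near the floor.

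All 12 tested neutrophil markers had a blood effect above 0 (median 0.20), none past the threshold, and 9 of the 12 lay near a floor. In lung 3 rose and 1 fell, against 8.18% and 6.15% of all probes. For the list, the summed blood level was 9.59 to 9.89 in silica rats and 9.35 to 9.60 in air rats. In lung the summed level was 7.46 to 7.59 in silica rats and 7.27 to 7.53 in air rats. Only S100a8 (positive) and Retnlg (negative) passed for the difference, against 2.24% positive and 1.26% negative among all probes. The list's median difference was -0.19. Whether the share of neutrophils in blood had a part in the blood effects named above was not tested. The summed interferon list was likewise higher in blood, at 9.53 to 9.84 in silica rats and 9.41 to 9.56 in air rats. In lung it was at 8.08 to 8.34 in silica rats and 7.85 to 8.12 in air rats. Ubd and Ifi44 were the only 2 of 21 members past the threshold for the difference, against 3.5% of all probes. At an unadjusted p under 0.05 the list had 7 negative and 3 positive differences, against 16.4% of all probes in either direction.

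A transcript near the floor of a tissue can hardly fall there, so each difference was read against its height above the dimmest detected signals. The floor lay at 6.44 in lung and 6.46 in blood. A probe counted as near a floor where it was undetected on at least 1 array of the tissue or lay on average less than 1 log2 unit above that level. Of the 266, 169 were above both floors and 97 near at least 1, against 4764 near a floor among all 7594. Of the 97, 55 were near the floor of blood alone, 23 near that of lung alone and 19 near both. Past the threshold were 5.97% of the probes above both floors, 8.31% of those near the blood floor alone, 2.31% of those near the lung floor alone and 0.612% of those near both.

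Near a floor were 47 of the 96 negative differences (49%) and 50 of the 170 positive ones (29.4%), against 62.7% of all probes. For 33 of the 97, 28 of them negative, the tissue that moved less had less room above its floor than the other tissue had fallen, a condition that only a fall can meet. None of the 169 above both floors had that limit, which follows largely from the margin of 1 log2 unit that defines them. Nr1d1, a repressor of the circadian clock, is the plainest case. It stood at 6.75, 7.14 and 7.94 in silica lungs and 8.21, 8.73 and 9.39 in air lungs, a fall of 1.48 on the log2 scale. In blood it was at 6.47 to 6.58 in silica rats and 6.50 to 6.61 in air rats, with 0.10 left above the floor in air blood. The difference of -1.44 ± 0.20 (adjusted p = 0.00147) therefore cannot show whether Nr1d1 fell as far in blood. The lung effect also exceeded the room in blood for the Wnt inhibitor Wif1 (difference -0.50, adjusted p = 0.00139, room 0.18) and Tppp3 of ciliated cells (-0.50, adjusted p = 0.0171, room 0.16). It exceeded the room as well for the endothelial receptor Acvrl1 (-0.57, adjusted p = 0.012, room 0.31) and, narrowly, for Tie1 (room 0.32). Their blood effects were 0.12 for Acvrl1 and -0.09 for Tie1. Wif1 and Acvrl1 were the 2 of 13 TGF-beta, BMP and Wnt genes past the threshold, against 1.26% negative among all probes, and 5 passed without the 3 rats. Tppp3 was 1 of 2 tested airway epithelium genes, and the other had a difference of 0.96 that did not pass.

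Rises near the blood floor are not limited by that room, but a small rise of a dim transcript may be hard to see there. Cd177, a surface glycoprotein of neutrophils in humans, differed by 1.5 ± 0.27 (adjusted p = 0.00713) with a blood effect of 0.05. Ly6i, of the Ly6 family of lipid-anchored surface proteins, differed by 1.05 ± 0.18 (adjusted p = 0.0056). Bhlhe41, a clock repressor like Nr1d1, rose in lung by 0.67 and differed by 0.68 ± 0.13 (adjusted p = 0.0118). Nr1d1 and Bhlhe41 were the only ones of 10 tested clock genes past the threshold, against 3.5% of all probes. The median difference of the clock list was 0.04.

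**Figure D4:**
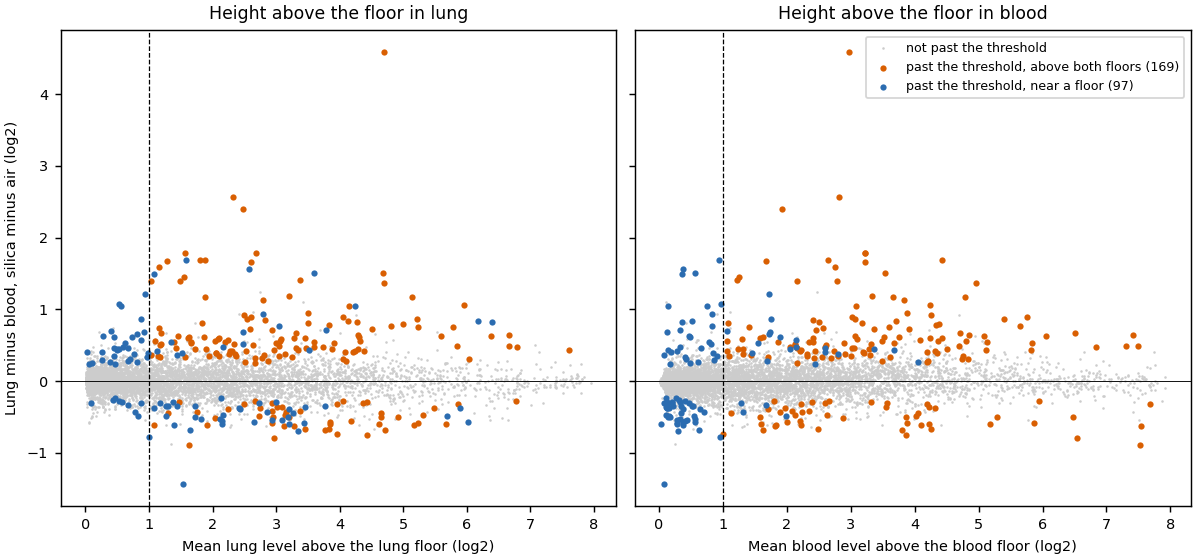
Difference (lung minus blood, silica minus air, log2) against the mean height above the lung floor (left) and the blood floor (right), 1 point per probe; the dashed line is the margin of 1 log2 unit. Positive differences reach far to the right in both panels, while many negative ones crowd left of the line in the blood panel, where 37 of 96 are near the blood floor alone.

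Some of the largest lung responses could not be compared with blood at all. There were 3691 probes measured in lung only and 270 in blood only. Spp1 (osteopontin), Slc26a4 (an anion exchanger), Mmp12 (the macrophage elastase) and Cfi (a complement regulator) were detected on 12 of 12 lung arrays but on 0 or 1 of 12 blood arrays, with blood values of at most 6.59. Their lung effects were 3.62 for Spp1, 3.13 for Slc26a4, 2.41 for Mmp12 and 2.40 for Cfi. In these genes blood gives only an upper limit on the level. Among lung-only probes 9.29% had lung groups that did not overlap, against 7.53% of the probes measured in both tissues.

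Across the 37 gene lists, 14 had no member past the threshold. They hold 165 tested members, of which 38 had an unadjusted p under 0.05, against 16.4% of all probes. Among them were the T cell, B cell, platelet, NK cell, ribosomal protein and MHC class I lists. Of 18 T cell markers 15 had a difference above 0, with a median of 0.09 and 7, all positive, at an unadjusted p under 0.05. Of 11 NK and cytotoxic markers 9 had a difference below 0, with a median of -0.23 and none at an unadjusted p under 0.05. Ribosomal protein genes had a median of 0.02 over 34 members.

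**Figure D5:**
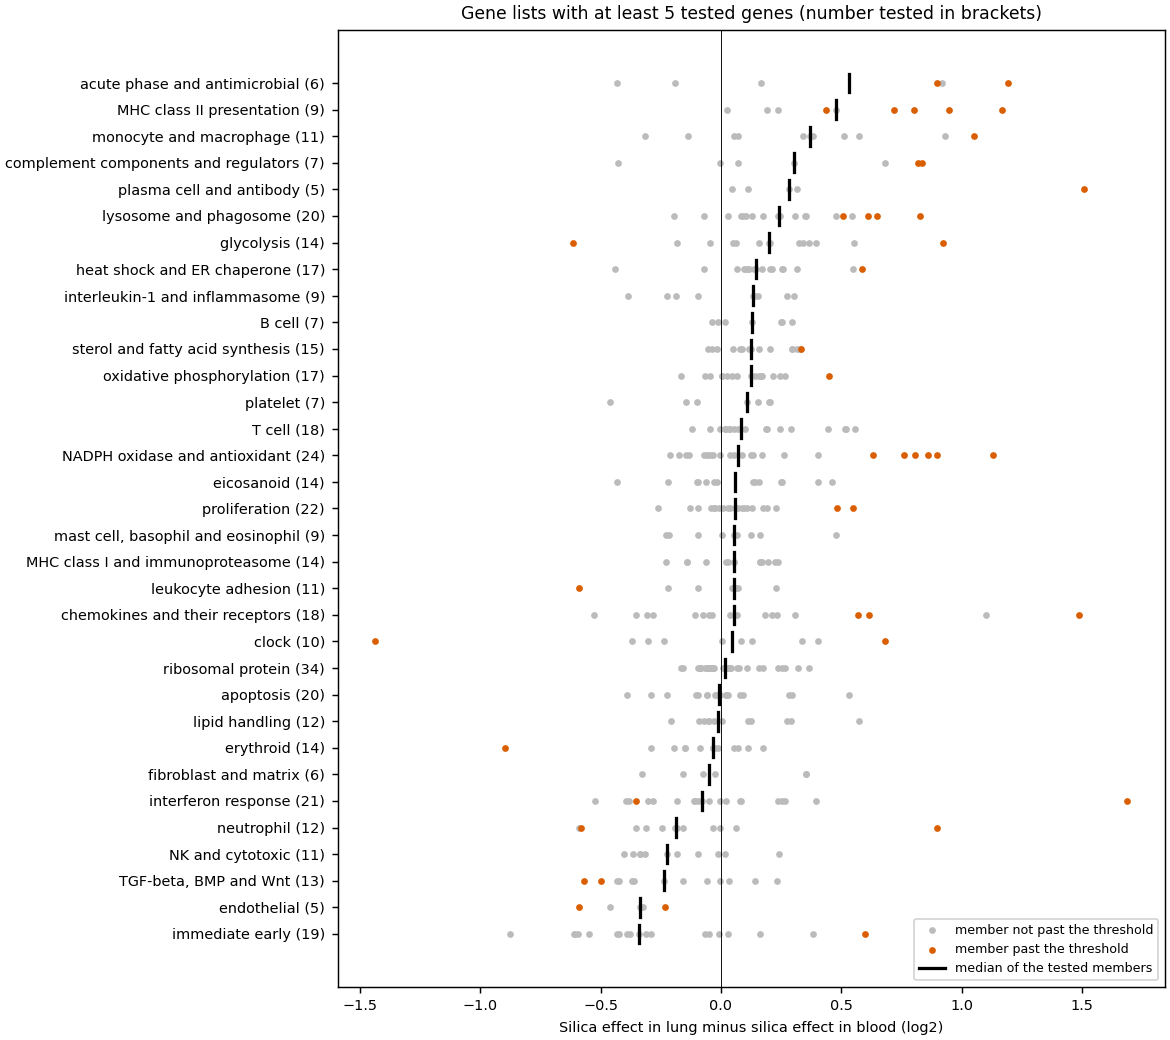
Difference (log2) of each tested member of the 33 lists with at least 5 tested genes, in order of the list's median (black bar), with members past the threshold in orange; the number tested is in brackets. MHC class II and the acute phase and antimicrobial list lie furthest to the right, and the immediate early and endothelial lists furthest to the left.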

How the data were processed

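Lung and blood RNA of 12 rats (6 silica, 6 air) was read on Illumina rat bead arrays, 1 per sample. The authors deposited, per array and per gene symbol, an average bead intensity without normalization, as the file headers name it, with a detection p-value computed by the scanner software. The deposited files also hold the authors' normalized values, which are log2 values for blood and, for lung, a score on a variance-stabilised scale whose exact transform the sources used here do not give. Per the submitters' processing notes, the tools were limma, lumi and BeadStudio, with no versions.

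The intensities of all 24 arrays were background corrected, quantile normalized together and put on a log2 scale with neqc (offset 16) in limma 3.58.1 (R 4.3.3). Lung minus blood was taken within each rat by the rat number in the source names, and 6 silica rats were compared with 6 air rats with limma's moderated test, adjusted by Benjamini-Hochberg over 7594 probes detected at p under 0.05 on at least 6 of 12 arrays in both tissues. Adjusted p-values of the lung and blood effects come from limma too. Same-rat lung and blood deviations from the group means correlated by -0.03 to 0.17 (median 0.09). The number of arrays limits the precision. The code was tested on simulated data.

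Genes named are, outside locus names, the 12 most positive and 12 most negative differences above both floors, the 6 largest near a floor, the 10 leading opposite genes, and up to 4 members of each of 37 lists. Cyba, Prdx5, Ifi30, Ctss, Ciita, Cybb, Fos, Egr1, Cldn5, Esam, Anxa1, Zfp532, LOC313824 and the genes measured in lung only were chosen after their values were seen. The members and lists were chosen with earlier results of these data known. RefSeq (GRCr8) matched 16267 of 21792 symbols; 5525 keep the array's name. Alternatives were normalization, background, detection, floor margin, replicate block and leaving out rats. Figures were drawn with matplotlib 3.10.9 in Python 3.11.15.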

Additional observations from a re-analysis of the deposited data

Results flagged for a closer look

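The silica effect differed between lung and blood for 266 probes, by the test of the difference itself in limma. Among 134 groups of 6 rats behind the named genes, 12 held a rat whose lung-minus-blood value lay far from the other 5, by Dixon's ratio at its 95% critical value. Chance flags about 1 in 20 groups. Silica rat 6 was that rat for Cd68 (0.607), C4b (6.86), Ccnb2 (-1.74) and Mcm6 (-0.814). It was also one of the 3 rats that stood apart in blood. The other silica rat was rat 2 for Ccr6 (-0.489). Of those that stood apart in blood, air rat 2 was far from the rest for Ubl3 (1.8) and Lpcat1 (3.46), and air rat 6 for Ubd (-0.411) and Dnajc3 (-0.734). Air rat 4 was far from the rest for Rnaset2 (1.63) and Ccl3 (0.273), and air rat 1 for Ppp1r3b (-0.688).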

How the results depend on the processing

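The 266 differences (170 positive, 96 negative) became 510 (306 and 204) with each tissue normalized alone, 49 (28 and 21) with median centring, 469 (299 and 170) with array weights and 437 (269 and 168) without silica rat 6 and air rats 2 and 6. With no filter on dim probes they became 492, of which 273 were negative. Without 1 rat they ranged from 191 (without air rat 3) to 410 (without silica rat 6), the positive ones from 122 to 250 and the negative ones from 63 to 160. Blood had 0 calls in limma with each tissue normalized alone and 0 with no background correction, and 0 to 35 without 1 rat; in the fit reported here 687 had an unadjusted p under 0.05. Lung calls ranged from 791 to 1205, opposite genes from 33 to 73, and those above both floors from 19 to 40. Differences near a floor numbered 97, and 62 with a margin of 0.5, 148 with a margin of 2, 25 by detection alone (48 opposite genes then lay above both floors) and 380 of 510 with each tissue normalized alone. The cause of these changes was not tested, beyond the number of probes or rats in the fit. Pairing came from the rat numbers. With no replicate block on the rat 274 passed, 297 with the rat as a random block and 245 with a block on the replicate number, which does not pair rats. Of 67 named genes 55 kept their call without each rat in turn, and 16 in every alternative that tested them. The authors' values gave 222 calls over 7291 probes, 196 of them among the 266. Their lung values are on a variance-stabilised scale and their blood values on log2. That lung-minus-blood value therefore mixes scales and need not be the same measure as the difference reported here. The files hold no chip numbers, so a chip block was not run. Signal over background limits what can be said of falls, and of small rises, in the tissue where a transcript is dim.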

Other observations

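All 9 tested interleukin-1 and inflammasome genes had a blood effect above 0 (median 0.33, against 0.21 in lung). In lung 4 had risen past the threshold, against 8.18% of all probes, and none had in blood. None passed for the difference in limma, with 3 at an unadjusted p under 0.05, against 16.4% of all probes. Their summed blood level was 9.57 to 9.90 in silica rats and 9.37 to 9.55 in air rats, and their lung level 8.61 to 8.83 in silica rats and 8.34 to 8.56 in air rats. Platelet genes had no blood effect above 0 among 7 (median -0.22), with 2 lower past the threshold in lung and none in blood, and their summed blood level was 11.17 to 11.47 in silica rats and 11.30 to 11.81 in air rats. None of the 7 passed for the difference, and 1 had an unadjusted p under 0.05, against 16.4% of all probes. Of 17 heat shock and chaperone genes 15 had a difference above 0 (median 0.15), and of 14 glycolysis genes 11 did (median 0.20), with 1 past the threshold in the heat shock list and 2 in the glycolysis list. In lung alone 5 of each list had risen, against 8.18% of all probes. Anxa1, an inhibitor of leukocyte entry, was chosen after its values were seen: it moved by 0.40 in blood (adjusted p = 0.107) and -0.05 in lung, with a difference of -0.45 (adjusted p = 0.00857).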
